A study of Rattus norvegicus with 3 samples.

Results

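The genes described here are those that a developing neutrophil switches on after its first granules are made, and 8 of them were taken by name. They are the secondary granule genes Ltf (ENSRNOG00000031779), Camp (ENSRNOG00000020733), Ngp (ENSRNOG00000024330), Lcn2 (ENSRNOG00000013973) and Olfm4 (ENSRNOG00000013280), and the late genes Padi4 (ENSRNOG00000006855), Retnlg (ENSRNOG00000001943) and Csf3r (ENSRNOG00000008759). Each was found once in every library, among 20896 gene names in the 3 libraries together. The study asked what injection of a miR-330 virus does in a rat model of temporomandibular joint osteoarthritis. Its 3 single-cell libraries were made from cartilage and subchondral bone of the mandibular condyle, each from 16 condyles of 8 rats pooled into 1 sample. All rats were wild-type SD rats injected in the joint with adeno-associated virus (AAV), and their age is not given in the sources used here. The sham group received the Vector AAV, the UAC group received the Vector AAV with unilateral anterior crossbite, a dental model that overloads the joint, and the miR-330 group received the miR-330 AAV with the same crossbite. The animals were kept for 8 weeks. Both UAC libraries carry the same deposited treatment label and were told apart by their titles. That the library titled as the treatment group received the miR-330 AAV was taken from the published methods.

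In bone marrow, neutrophils pass through stages that can be read from their granules. Primary granules with myeloperoxidase and defensins are filled first, secondary granules with antimicrobial and metal-binding proteins next, and gelatinase granules last, and receptors for chemokines and growth factors appear as the cell matures. The transcription factor C/EBP epsilon, encoded by Cebpe, is needed for the secondary granule programme.

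The deposited data give the mean of every gene in every cluster of each library. These clusters are numbered within a library, whereas the paper describes clustering of the integrated samples. The means were turned back into unique molecular identifiers (UMIs), the count of captured RNA molecules. A level is in UMIs per 1000000 UMIs of the cluster or clusters (CPM). Values in a row of 3 are in the order sham, UAC and miR-330. The sham library held 77668015 UMIs in 15 clusters, the UAC library 92629658 in 18 and the miR-330 library 97255383 in 19. With 1 library per condition there was no replicate and no test. Intervals are 95% intervals, exact Poisson for levels, exact binomial for shares and exact conditional binomial for log2 ratios, and they cover counting error only. A gene is called here when its level differed at least 2-fold between 2 libraries, with 0.5 UMI added to both counts and at least 50 UMIs in the 2 libraries together. Fewer cells of a type and less RNA per cell cannot be told apart in these values.

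The labels name chondrocytes and osteoclasts as the cell types. Most chondrocyte markers were enriched in 1 cluster of each library (18, 18 and 19 of the 20 listed), and no cluster had more than 2 osteoclast markers enriched. The chondrocyte-marker clusters also had all 10 osteogenic markers and 9, 9 and 10 of 13 fibroblast markers enriched. Clusters with at least 10 of 22 neutrophil markers, none of them one of the 8 genes, were called granulocyte-like. These were sham clusters 8 and 10, UAC clusters 7, 8, 12 and 18 and miR-330 clusters 6, 9, 15 and 18. The name joins the neutrophil and early granulocyte marker lists, and both it and the minimum of 10 were chosen after the values were seen, because both clusters numbered 18 had more early granulocyte than neutrophil markers among their 10 leading genes. Early granulocyte markers were also found outside this class, and differently in each library. Sham cluster 14 had 9 of the 14 enriched and UAC cluster 13 had 11, both with 0 neutrophil markers and with 9 and 10 mast cell and basophil markers, and they held 1.99% and 3.69% of the UMIs. In the miR-330 library cluster 18, with 11 early granulocyte, 8 mast cell and basophil and 10 neutrophil markers, is inside the class, so values of primary granule genes in the class come from clusters with different markers in the 3 libraries. The clusters next below the minimum had 8, 5 and 7 neutrophil markers. They were the clusters with 14 macrophage markers, which are sham cluster 15, UAC cluster 9 and miR-330 cluster 10, and they held 4.36%, 6.33% and 6.16% of the UMIs. They are called macrophage-marker clusters by that count alone, since their 10 leading genes held 0, 2 and 1 markers of that list and 1 neutrophil marker, Fcnb, in each library. The granulocyte-like clusters held 10.0% of all UMIs for sham, 15.9% for UAC and 14.2% for miR-330.

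Of the 8 genes, 7 were abundant in the granulocyte-like clusters and 1, Ltf, was close to absent there. Camp encodes cathelicidin, an antimicrobial peptide precursor of the secondary granules, and had the highest level of the 8 over all granulocyte-like clusters of each library. Its level there was 26513 CPM for sham, 26156 for UAC and 24707 for miR-330. Ngp, neutrophilic granule protein, a relative of the cathelicidins and cystatins, followed with 20855, 21678 and 15333 CPM. In UAC clusters 12 and 7 Ngp was above Camp, with 47036 against 38391 CPM and 16670 against 13848 CPM. The order of Camp and Ngp in that library thus rests on cluster 18. Lcn2, lipocalin 2, which binds bacterial iron carriers, was at 4501, 4912 and 5056 CPM. Retnlg, a resistin-like secreted protein, was at 7081, 6231 and 4518 CPM, so that it stood above Lcn2 in the sham and UAC libraries and below it in the miR-330 library. Olfm4, olfactomedin 4, a glycoprotein found in a subset of neutrophils, had 584, 473 and 727 CPM. Padi4, the enzyme that converts arginine of histones to citrulline when neutrophil extracellular traps form, had 272, 258 and 245 CPM. Csf3r, the receptor for granulocyte colony-stimulating factor, was the lowest of the 7, with 70.9, 55.3 and 72.2 CPM. The kit reads the 3′ end of each molecule, so these levels were not divided by gene length, and capture may differ between genes.

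Ltf encodes lactoferrin, the iron-binding protein by which secondary granules are usually recognised. It had 0 UMIs in the granulocyte-like clusters of the sham library, which at this depth allows a level of up to 0.385 CPM when 3 UMIs are taken as the limit of a count of 0, and 1 UMI in those of each other library. Over all clusters Ltf had 32, 52 and 35 UMIs, spread over clusters with at most 12 UMIs each. Its relative Tf, transferrin, stood at 13704, 13455 and 12226 CPM in the same granulocyte-like clusters, and these clusters held 92.1%, 92.9% and 93.6% of its UMIs. How the reference used for counting describes Ltf was not examined, so its low count is a measured value of these tables and not a statement about the protein.

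The 7 abundant genes peaked in different clusters. Genes outside the 8 place the clusters. Among the granulocyte-like clusters Mpo, myeloperoxidase, was highest in UAC cluster 18 and miR-330 cluster 18, with 297 and 1125 CPM, and in sham cluster 10 with 44.4 CPM, but sham cluster 14 and UAC cluster 13, outside the class, had more, with 955 and 778 CPM. Cebpe was highest in sham cluster 10, UAC cluster 12 and miR-330 cluster 9, with 258, 318 and 305 CPM. Mmp9, gelatinase B, was highest in sham cluster 8, UAC cluster 7 and miR-330 cluster 15, with 923, 1306 and 1468 CPM. Cxcr2, a chemokine receptor of mature neutrophils, was highest in sham cluster 8, UAC cluster 8 and miR-330 cluster 6, with 183, 242 and 393 CPM, and interferon-induced genes such as Ifit3 were among the leading genes of these 3 clusters. Ifit3 was picked after its values were seen. The defensin genes RatNP-3b and Np4 were among the leading genes of both clusters numbered 18 and also of sham cluster 10. The sham library had no separate cluster for high Mmp9.

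Camp was already high in both clusters numbered 18. In the UAC library it had 41327 CPM in cluster 18, 38391 in cluster 12, 13848 in cluster 7 and 1807 in cluster 8, an order in which no neighbouring intervals overlapped. In the miR-330 library it had 29364 CPM in cluster 18, 36447 in cluster 9, 11626 in cluster 15 and 2184 in cluster 6. In the sham library it had 39012 CPM in cluster 10 and 7034 in cluster 8. Camp was thus the one of the 8 genes with a level near its highest in both clusters numbered 18.

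Ngp and Lcn2 peaked in the Cebpe clusters. Ngp had 6141 CPM in UAC cluster 18, 47036 in cluster 12, 16670 in cluster 7 and 192 in cluster 8. In the miR-330 library Ngp had 2954 CPM in cluster 18, 33722 in cluster 9, 3900 in cluster 15 and 87.4 in cluster 6. Between the highest and the lowest granulocyte-like cluster Ngp differed 244-fold in the UAC library, 386-fold in the miR-330 library and 9.74-fold in the sham library. Lcn2 had 11517 CPM in UAC cluster 12 and 47.0 in cluster 8, and 10588 CPM in miR-330 cluster 9 and 46.4 in cluster 6. In the sham library Lcn2 was at 7050 CPM in cluster 10 and 529 in cluster 8. In UAC cluster 8 and miR-330 cluster 6 the levels of Ngp and Lcn2 were below their highest level in a cluster outside the granulocyte-like ones, whereas Camp stayed above it.

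Olfm4 varied least of the secondary granule genes. Its level was 714 CPM in sham cluster 10 and 381 in cluster 8. In the UAC library Olfm4 ran from 157 CPM in cluster 8 to 679 in cluster 12, and in the miR-330 library from 165 in cluster 6 to 1194 in cluster 9. The highest level was 1.87-fold, 4.33-fold and 7.22-fold the lowest in the 3 libraries.

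Padi4, Retnlg and Csf3r were higher in the later clusters. Padi4 was lowest in the clusters numbered 18, with 43.7 and 34.7 CPM, and highest in the Mmp9 clusters, with 384 CPM in sham cluster 8, 424 in UAC cluster 7 and 477 in miR-330 cluster 15. Retnlg differed more over the same clusters, with 243 CPM in UAC cluster 18, 751 in cluster 12, 13003 in cluster 7 and 13412 in cluster 8. In the miR-330 library Retnlg had 84.1 CPM in cluster 18, 1214 in cluster 9, 11910 in cluster 15 and 12011 in cluster 6, where the intervals of the last 2 overlapped. In the sham library Retnlg had 1367 CPM in cluster 10 and 15986 in cluster 8. Csf3r was highest in the Cxcr2 clusters, with 148 CPM in sham cluster 8, 206 in UAC cluster 8 and 257 in miR-330 cluster 6. Its lowest levels were 21.7 CPM in sham cluster 10, 13.2 in UAC cluster 12 and 18.9 in miR-330 cluster 18, and in the UAC and miR-330 libraries the 2 lowest clusters had overlapping intervals.

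**Figure D1:**
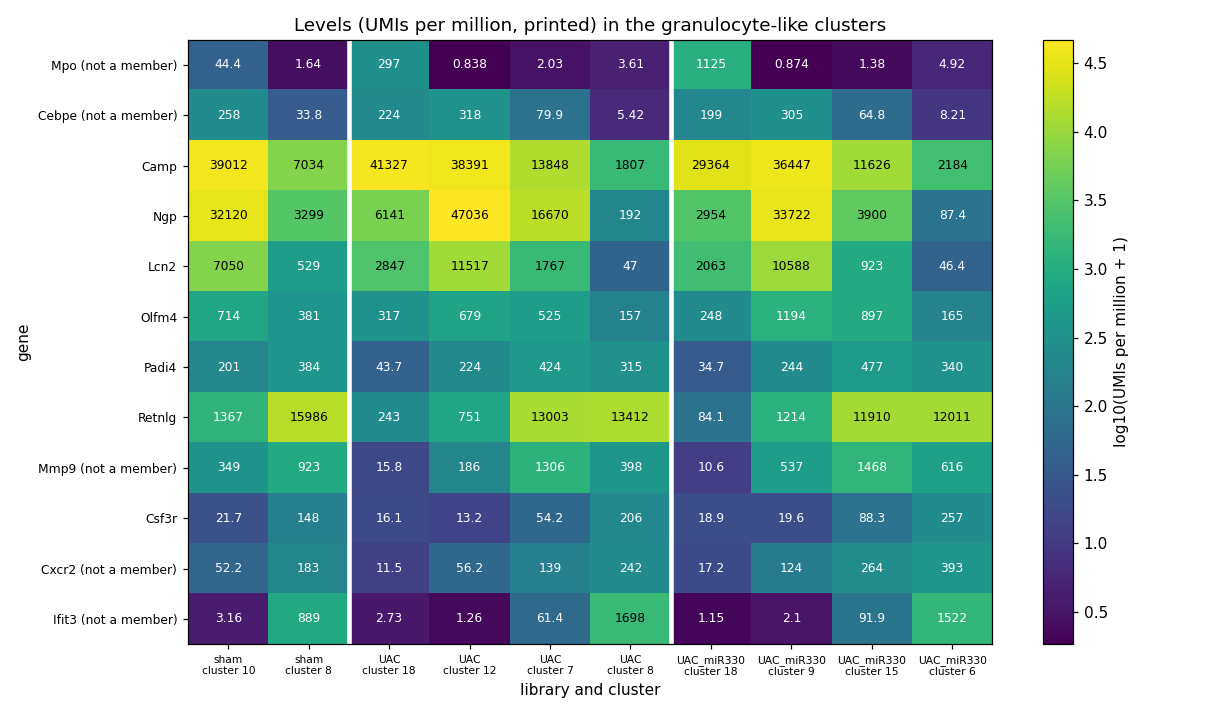
Levels in CPM (printed, colour as log10 of the level plus 1) of 7 of the genes and of 5 genes outside the set in the 10 granulocyte-like clusters, with libraries separated by white lines. Camp is at 41327 and 29364 in both clusters numbered 18, Ngp and Lcn2 are highest in the clusters highest in Cebpe, and Csf3r is highest in those highest in Cxcr2.

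Over all clusters, none of the 8 genes was called in any of the 3 comparisons. Camp was at 2833 CPM for sham, 4355 for UAC and 3625 for miR-330. Ngp was at 2201, 3642 and 2249 CPM, Lcn2 at 471, 815 and 744, and Retnlg at 739, 1031 and 664. Olfm4 was at 59.9, 79.3 and 107 CPM, Padi4 at 29.1, 43.4 and 36.6, and Csf3r at 10.2, 12.8 and 14.2. In UAC against sham 0 of 8 were called where 4.33% of all 14235 genes were, and all 8 had a higher level in the UAC library, although for Ltf the interval of the ratio spanned 0, with a median log2 ratio of 0.53 beside −0.02 for all genes. The share of UMIs in granulocyte-like clusters had a log2 ratio of 0.66 in the same comparison. Against UAC, 0 of 8 were called in miR-330 beside 3.34% of all genes, and against sham 0 of 8 beside 8.17%. The medians of all genes were 0.13 and 0.14 in these comparisons. Those of the 8 genes were −0.25, with 2 of them higher, and 0.34, with 6 of them higher. The share of UMIs in granulocyte-like clusters had log2 ratios of −0.16 and 0.50. With the deposited means in place of CPM, Lcn2 and Olfm4 were past 2-fold in miR-330 against sham, with 1.09 and 1.27, beside 20.2% of all genes. Leaving out the cluster highest in primary granule genes removes sham cluster 10, which is also the sham cluster highest in Cebpe, and cluster 18 of the other libraries. The primary granule gene Mpo was higher in sham cluster 14 and UAC cluster 13, with 955 and 778 CPM, and these clusters stay in. Sham cluster 10 held 84.3% of the Camp, 89.3% of the Ngp, 91.5% of the Lcn2, 72.9% of the Olfm4 and 42.2% of the Padi4 UMIs of its library, and the Cebpe clusters of the other libraries stay in, so higher levels against sham follow from how this setting is built and it says nothing on the stability of the counts. In it Camp, Ngp, Lcn2, Padi4 and Olfm4, 5 of 8, were past 2-fold with higher levels in UAC against sham, beside 5.84% of all genes, and in miR-330 against sham, beside 9.39%.

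Within the granulocyte-like clusters 7 genes had enough UMIs, and in UAC against sham 0 of 7 were called, beside 1.28% of 8136 genes, and the median log2 ratio was −0.08. Csf3r had the lowest ratio, −0.36 (−0.52 to −0.20), where it had 0.32 over all clusters, and Lcn2 the highest, 0.13 (0.11 to 0.14). With the deposited means in place of CPM every ratio rose by the same amount, and the median of all genes went from 0.01 to 0.21. The ratios of Camp, Padi4 and Retnlg, which were closer to 0 than this shift, changed sign. From UAC to miR-330 0 of 7 were called, beside 6.42% of all genes, and the median of all genes was itself 0.33, so that each ratio is given also after this median was subtracted. Ngp had a ratio of −0.50, or −0.83 after subtraction, and Retnlg −0.46, or −0.79. Olfm4 had 0.62, or 0.29, and Csf3r 0.39, or 0.06. Lcn2 changed sign, from 0.04 to −0.29, and had −0.09 with a denominator without mitochondrial, haemoglobin, S100a8 and S100a9 UMIs. Camp had −0.08, or −0.41, and Padi4 −0.07, or −0.40. Both changed sign with the deposited means, to 0.15 and 0.16, where every gene rose alike and the median of all genes was 0.57. Set against sham, miR-330 had 0 of 7 called, beside 9.78% of all genes. The clusters numbered 18 were in 2 of the 3 libraries. Without them 0 of 7 were called in UAC against sham, beside 5.23% of all genes, and 0 of 7 in miR-330 against UAC, beside 5.01%. Camp in that setting in miR-330 against UAC changed from −0.08 to 0.09, and in UAC against sham Padi4 changed from −0.08 to 0.23 and Retnlg from −0.18 to 0.17. For UAC against sham it removes the UAC cluster lowest in Padi4 and Retnlg and no sham cluster. Higher ratios of these genes thus follow from how it is built. For miR-330 against UAC it removes the UAC cluster highest in Camp, which held 33.8% of the Camp UMIs of its library. The miR-330 cluster it removes held 29.0% and was not the highest, so the sign change of Camp can follow from the setting. With sham cluster 14 and UAC cluster 13 added to the class, a setting also chosen after seeing the data, 0 of 7 were called in either comparison, beside 3.2% and 7.51% of all genes, and in miR-330 against UAC both Camp and Padi4 changed sign, to 0.21. For that comparison the setting adds UAC cluster 13, with 449 CPM of Camp and 10.8 of Padi4, and no miR-330 cluster. The higher ratios of Camp and Padi4 thus follow from this construction. In the setting that removes sham cluster 10, with the same limit, 5 of 7 were past 2-fold in UAC against sham, beside 8.23% of all genes, with Camp at 1.63, Ngp at 2.99 and Lcn2 at 3.38 and with Csf3r at −1.15 and Retnlg at −1.01. In miR-330 against sham 5 of 7 were as well, beside 13.3%, namely Camp, Ngp, Lcn2 and Olfm4, higher, and Retnlg, lower. In miR-330 against UAC, where it removes only the clusters numbered 18, 0 of 7 were, beside 5.01%.

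Clusters that matched by a gene outside the 8 were then set side by side, and this pairing was chosen with the values in view. In the clusters highest in Cebpe 0 of 7 genes were called in UAC against sham, beside 5.86% of all genes, and 0 of 7 in miR-330 against UAC, beside 6.4%, where the median of all genes was 0.29. In these clusters Olfm4 was at 714, 679 and 1194 CPM in that order of libraries, and Retnlg at 1367, 751 and 1214. In the clusters highest in Cxcr2 4 of 7 were called in UAC against sham, all lower, beside 4.68% of all genes. Camp had 7034 CPM in the sham cluster and 1807 in the UAC cluster, a log2 ratio of −1.96 (−2.01 to −1.91). Ngp had 3299 and 192 CPM, Lcn2 529 and 47.0, and Olfm4 381 and 157. The sham cluster is also the one highest in Mmp9, and the UAC library has a separate cluster for that gene, so the clusters compared do not cover the same range. From UAC to miR-330 1 of 7 was called in the Cxcr2 clusters, Ngp with 87.4 CPM in the miR-330 cluster and 192 in the UAC cluster, beside 4.89% of all genes. Its ratio was −1.14, or −1.33 after the median of 0.20 was subtracted, and −0.90 and not called with the deposited means.

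Outside the granulocyte-like clusters 6 of the 8 genes had UMIs in every one of the 42 other clusters, whereas Ltf had 0 UMIs in 11 of them and Csf3r in 4. The granulocyte-like clusters held 94.0% (93.9% to 94.1%), 95.4% (95.3% to 95.5%) and 96.8% (96.8% to 96.9%) of the Camp UMIs. For Ngp, Lcn2, Padi4, Retnlg and Olfm4 these shares lay between 94.2% and 97.9%. S100a8 and S100a9, 2 abundant neutrophil genes set beside them, had shares between 94.7% and 97.3%. The level of Camp in the other clusters was 0.711%, 0.911% and 0.544% of that in the granulocyte-like clusters, and the level of S100a8 was 0.631%, 0.984% and 0.641%. Free RNA was not subtracted, and its part in these levels was not tested.

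Csf3r and Ltf had lower shares. Of the few Ltf UMIs the granulocyte-like clusters held 0%, 1.92% and 2.86%. Of the Csf3r UMIs they held 69.6% (66.3% to 72.8%), 68.5% (65.8% to 71.2%) and 72.0% (69.5% to 74.3%). Its level in the macrophage-marker cluster was 49.0 (41.9 to 57.1), 48.4 (42.9 to 54.4) and 50.4 (44.9 to 56.5) CPM, with overlapping intervals. Every other cluster outside the granulocyte-like ones had at most 6.45 CPM of Csf3r. In each library this level was above that of the granulocyte-like cluster lowest in Csf3r. For each 1000 UMIs of S100a8 and S100a9 there were 8.75, 8.81 and 14.3 Csf3r UMIs in this cluster, against 0.216, 0.172 and 0.286 in the granulocyte-like clusters.

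Of the other clusters, some had more of single genes. Sham cluster 14, with 11 erythroid, 9 early granulocyte and 9 mast cell and basophil markers, had 1496 CPM of Camp but 181 of Ngp, whereas UAC cluster 13 had 449 and 440. For the sham cluster this was a ratio of Ngp to Camp of 0.121 where the granulocyte-like clusters of that library had 0.787. UAC cluster 6, with 6 B cell markers, had 711 CPM of Camp, 1256 of Ngp and 203 of Lcn2, a ratio of Ngp to Camp of 1.77 against 0.829. In the chondrocyte-marker clusters Lcn2 had 14.4, 54.3 and 21.2 CPM, beside 477, 1627 and 335 CPM of S100a8.

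Over the other clusters together, 2 of 8 genes were called in UAC against sham, both higher, beside 4.57% of all genes. Ngp had 118 and 237 CPM, a log2 ratio of 1.00 (0.97 to 1.04) that was not called after centring on the median of all genes, with 0.97, nor without sham cluster 14 and UAC cluster 13, with 0.96, and Olfm4 1.39 and 4.95 CPM, a ratio of 1.83 (1.51 to 2.17). UAC cluster 5 held 57.8% of these Olfm4 UMIs of the UAC library, and without it the ratio was 0.83 and not called. From UAC to miR-330 1 of 8 was called, beside 3.58% of all genes. It was Ngp, with 82.8 CPM in the miR-330 library, 237 in the UAC library and a ratio of −1.51. Retnlg had −0.95, and was past 2-fold after centring, with −1.05. S100a8 and S100a9 had ratios of −0.96 and −0.93 in the same comparison. In miR-330 against sham 1 of 8 was called, Olfm4 with a ratio of 1.56, or 1.42 after the median of 0.14 was subtracted, beside 8.31% of all genes.

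**Figure D2:**
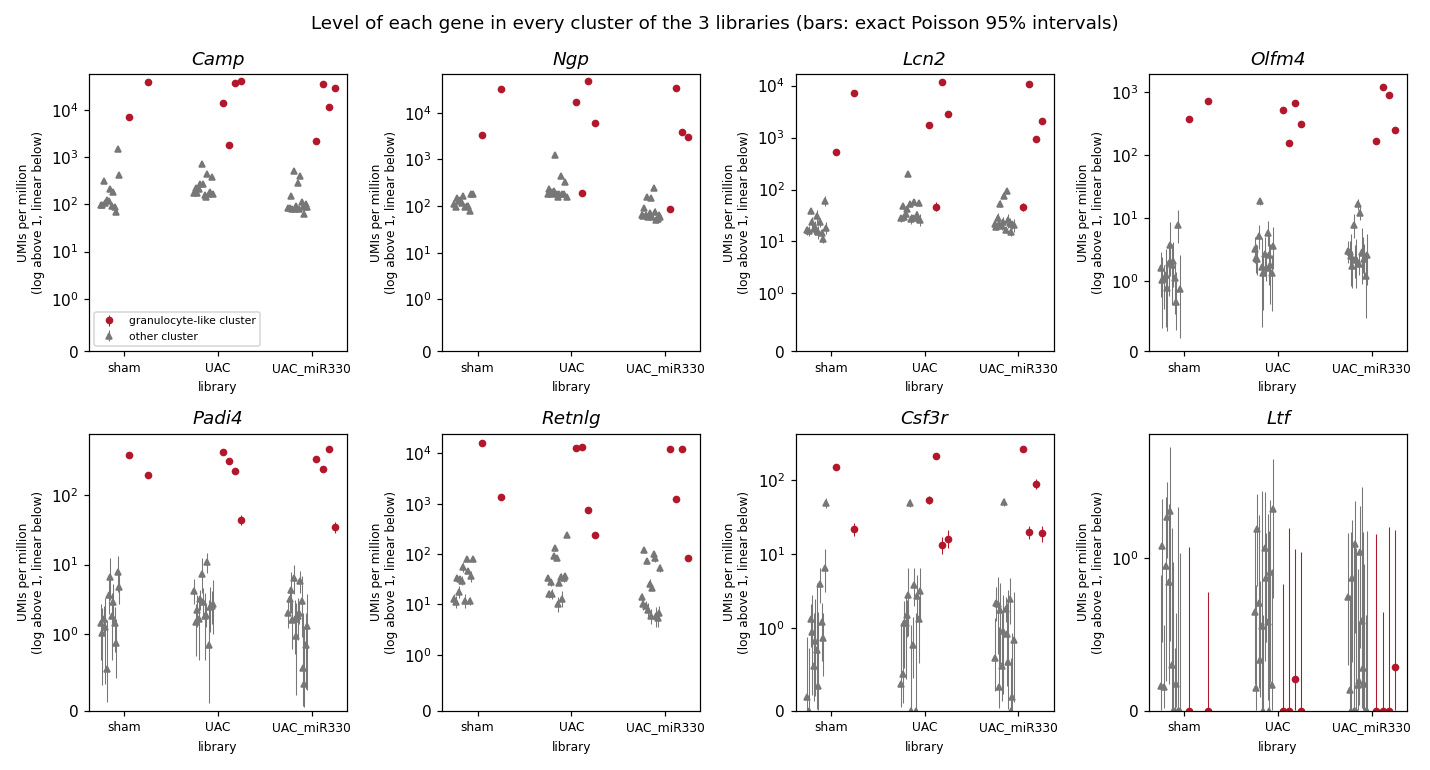
Level of each of the 8 genes in CPM (axis logarithmic above 1 and linear below) in every cluster of the 3 libraries, with exact Poisson 95% intervals. Granulocyte-like clusters are red circles and the others grey triangles: Csf3r has 1 grey triangle near 50 in each library, the macrophage-marker cluster at 49.0, 48.4 and 50.4, and Ltf stays near 0 in the red circles.

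Genes of the same pathway were read in the granulocyte-like clusters from lists. Of 13 primary granule genes listed in the tables, 11 had enough UMIs in UAC against sham and 2 were called higher, Mpo and Ctsg, beside 1.28% of all genes called, with a median log2 ratio of 0.15 beside 0.01 for all genes. In miR-330 against UAC 4 of 12 were called higher, Mpo, Elane, Prtn3 and Ctsg, beside 6.42% of all genes, of which 543 of 569 were higher, and the median was 0.54 beside 0.33. These calls depend on which clusters are in the class. With sham cluster 14 and UAC cluster 13 added, 1 of 13 was past 2-fold in UAC against sham, Prtn3, and 3 of 13 in miR-330 against UAC, Elane, Prtn3 and Ctsg, all higher, beside 3.2% and 7.51% of all genes, of which 119 of 292 and 369 of 704 were higher. Without the clusters numbered 18, 6 of 10 primary granule genes were past 2-fold in UAC against sham, all lower and Mpo among them, and in miR-330 against UAC 5 of 9 were, all higher, namely RatNP-3b, Defa5, Defa11, Np4 and Ms4a3, of which Defa11 and Ms4a3 were picked after their values were seen. That setting removes UAC cluster 18, at 78172 CPM of RatNP-3b, and keeps sham cluster 10, at 27033 CPM. Lower levels of such genes in UAC against sham thus follow from how it is built. In that setting 5.23% of all genes were past 2-fold in the first comparison, 363 of 399 of them lower, and 5.01% in the second, 348 of 391 of them higher. Mpo was at 27.7, 67.9 and 285 CPM in the granulocyte-like clusters, 181, 202 and 285 with the added clusters and 32.9, 48.4 and 49.95 over all clusters. The serine protease gene Prtn3 was at 0.385, 2.65 and 174 CPM, with the added clusters at 41.5, 84.0 and 174, and over all clusters at 6.99, 17.5 and 27.9. The defensin genes RatNP-3b, at 16484, 18257 and 22713 CPM, and Np4 are near copies whose reads may be split between them. Of the other secondary granule genes 0 of 17 and 0 of 18 were called in the 2 comparisons, with medians of −0.01 and −0.07. Among them Lyz2, lysozyme, was at 11039, 9496 and 12824 CPM and Mmp8, neutrophil collagenase, at 4689, 4726 and 4183.

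For the lists that follow, 1.28% of all genes were called in UAC against sham and 6.42% in miR-330 against UAC, in the latter mostly higher. Of the gelatinase granule and secretory vesicle genes 0 of 9 were called in either comparison, with Mmp9 at 573, 517 and 565 CPM. Of the mature neutrophil surface genes 0 of 15 and 2 of 17 were called, the latter Selplg and Csf2rb, both under 5 CPM in every library. Of the granulocyte transcription factors 0 of 14 and 1 of 16 were called, the latter Runx3, and Cebpe was at 170.5, 178 and 188 CPM. In the axis of granulocyte colony-stimulating factor 0 of 12 and 1 of 12 were called, the latter Ptpn11, and Stat3, which carries the signal of Csf3r, was at 115, 123 and 172 CPM. Of the genes of extracellular traps and peptidylarginine deiminases 1 of 14 and 2 of 14 were called, Mpo and then Mpo and the elastase gene Elane, and Padi3 was at 3.33, 2.79 and 2.53 CPM. Of the relatives of the 8 genes 0 of 7 and 3 of 8 were called, Cst7 and Csf2rb higher and Retn, resistin, lower in the miR-330 library, the last at 270, 460 and 194 CPM. Of the receptors and partners 0 of 4 were called in either comparison, and of the iron handling genes 1 of 11, Hmox1 lower in the UAC library, and 0 of 12. After the median of 0.33 was subtracted in miR-330 against UAC, Selplg, Csf2rb, Runx3 and Ptpn11 were no longer past 2-fold, Mpo, Elane, Prtn3, Ctsg, Cst7 and Retn still were, and Hmgb1 and Slc11a2 were past it with lower levels. With sham cluster 14 and UAC cluster 13 added, Mpo in both comparisons, Hmox1 in UAC against sham, and Csf2rb, Runx3, Ptpn11, Cst7 and Retn in miR-330 against UAC were not past 2-fold, whereas Selplg and Elane were. Genes past 2-fold with these clusters added, and not called in the granulocyte-like clusters alone, included Csf2rb and Runx3, higher, and Per3, lower, in UAC against sham, and in miR-330 against UAC Cxcr2, higher, and Fcnb, Slc22a17, Slc11a2 and Hmox1, lower. For miR-330 against UAC this setting adds UAC cluster 13 and no miR-330 cluster, so these changes can follow from how it is built. Cxcr2 went from 99.0 to 80.7 CPM in the UAC library and stayed at 167 in the miR-330 library. Without the clusters numbered 18 Csf2rb, Runx3, Mpo and Elane were not called in miR-330 against UAC. In UAC against sham Mpo, Hmgb1, Cst7 and Tfrc were then past 2-fold with lower levels and Clec4e with a higher one. That setting removes a cluster from the UAC library and none from the sham library. In it 363 of 399 genes past 2-fold in UAC against sham were lower. Directions in that comparison can thus follow from how the setting is built. In the same setting Per3 was higher in miR-330 against UAC. Genes named for these added settings were picked after their values were seen.

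The genes most like each of the 7 were sought over all 52 clusters by Pearson r of log2(CPM + 1), among 11724 genes with at least 100 UMIs in every library. Clusters of a library share its depth and free RNA, so r is a description. Camp was most like Orm1, Tmem171 and Cd177, each with an r of 0.97. Ngp was most like Lcn2 (0.97), Stbd1 and Cd177, and Lcn2 most like Orm1 (0.98), Chit1 and Ngp. Padi4 was most like Pglyrp1 (0.97), Tnnc1 and Clec5a, and Olfm4 most like Slco4c1 (0.96), Pglyrp1 and Ifitm6. Retnlg was most like the collagenase and gelatinase genes Mmp8 (0.97) and Mmp9 (0.95) and Il1r2. Csf3r was most like Cd300lb (0.98), Igsf6 and Fcgr1a. By Spearman rho the nearest gene was the same for 2 of 7, Csf3r and Retnlg. Among the 7 themselves, r ran from 0.53 between Csf3r and Ngp to 0.97 between Lcn2 and Ngp.

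Promoter sequences were taken from RefSeq (GRCr8), where 7 of the 8 genes were matched by name in the table of promoters used here, all but Padi4. The promoters of Camp, Ngp and Ltf lie on chromosome 8 within 1.16 megabases. They are shown because the first 2 genes were the most abundant and the last was nearly absent. The letters TTNNGNAA, a C/EBP-type motif, were searched on both strands in the 250 bases before each start, and capitals mark the matches. They were found in 3 of the 7 promoters, those of Ngp, Lcn2 and Csf3r, and in 36.8% of 27457 promoters of the same length. The letters GAGGAA, a PU.1-type motif, were found in 2 of the 7, those of Csf3r and Olfm4, and in 23.2% of all. The Camp sequence is at chr8:118721999-118722248 on the minus strand, that of Ngp at chr8:119272355-119272604 and that of Ltf at chr8:119878094-119878343, both on the plus strand.
Camp: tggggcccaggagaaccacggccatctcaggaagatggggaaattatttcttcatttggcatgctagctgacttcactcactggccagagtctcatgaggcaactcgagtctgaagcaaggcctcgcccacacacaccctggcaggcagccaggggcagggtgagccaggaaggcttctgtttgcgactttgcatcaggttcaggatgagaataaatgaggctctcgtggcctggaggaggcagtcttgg
Ngp: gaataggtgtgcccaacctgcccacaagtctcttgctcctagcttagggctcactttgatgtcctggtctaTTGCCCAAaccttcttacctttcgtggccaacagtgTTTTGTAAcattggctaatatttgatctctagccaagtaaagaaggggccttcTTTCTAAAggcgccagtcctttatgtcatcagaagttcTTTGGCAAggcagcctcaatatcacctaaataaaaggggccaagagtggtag
Ltf: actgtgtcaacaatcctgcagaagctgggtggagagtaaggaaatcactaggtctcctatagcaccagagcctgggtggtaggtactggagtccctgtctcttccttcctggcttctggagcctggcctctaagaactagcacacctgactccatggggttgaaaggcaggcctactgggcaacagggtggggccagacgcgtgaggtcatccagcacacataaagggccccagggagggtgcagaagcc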

How the data were processed

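Single-cell libraries were prepared with a 10x Genomics 3′ kit. The submitters' processing notes name Cell Ranger 7.0, STAR and Seurat 4.0.1. They list human and mouse genome builds although the animals were rats, so the build used for counting is not known here. The deposited signal values are mean counts per cluster, and all columns of a library had 1 total (sham 4541, UAC 5200, miR-330 6123.5). Columns with the authors' own fold changes and p-values were not used. Each mean was divided by the smallest positive mean of its column, and 100% of values came out whole within 1e-06. Genes were summed by name, and 1 UMI was taken as 1 molecule. Depth was 77668015, 92629658 and 97255383 UMIs. Scripts in Python 3.11.15 with numpy 2.4.6, pandas 2.3.3, scipy 1.17.1 and matplotlib 3.10.9 were tested on simulated data.

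A marker counted as enriched with a log2 ratio of at least 1 against the rest of the library and at least 10 UMIs. The named genes were the 8 genes, the 3 genes most like each, and from each list up to 4 with the most UMIs in the granulocyte-like clusters and up to 2 with the largest ratio in each direction, besides S100a8, S100a9 and the markers that place a cluster. The 8 genes and the lists were chosen with earlier results of these data known. Alternatives were the deposited means as they stand, 5 UMIs added, centring on the median of all genes, no minimum of UMIs, a smaller denominator (without mitochondrial, haemoglobin, S100a8 and S100a9 UMIs), leaving out or adding clusters, another rule for the clusters and Spearman rho. Cell numbers and UMIs per cell of the clusters are unknown, doublets were not treated and free RNA was not subtracted.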

Additional observations from a re-analysis of the deposited data

Results flagged for a closer look

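Some of the genes had log2 ratios of opposite sign in the granulocyte-like and in the other clusters of the same 2 libraries, with both counting intervals clear of 0. The difference was not tested, since each condition has 1 library. The log2 ratio in the granulocyte-like clusters minus that in the other clusters was, in UAC against sham, −0.36 for Camp, −0.70 for Padi4, −0.83 for Csf3r, −0.84 for Retnlg and −2.13 for Olfm4. For Olfm4 the ratios were −0.30 in the granulocyte-like clusters and 1.83 in the others, where UAC cluster 5 held 57.8% of its UMIs, and 0.83 without that cluster. In miR-330 against UAC the difference was 0.51 for Lcn2 and 0.89 for Olfm4. The medians of all genes also differed there, with 0.33 in the granulocyte-like and 0.10 in the other clusters. After these were subtracted, Lcn2 had −0.29 and −0.57, of the same sign, and Olfm4 had 0.29 and −0.37. The opposite sign of Olfm4 there rests on the same UAC cluster, since its ratio in the other clusters was −0.27 and without UAC cluster 5 it was 0.73, beside 0.62 in the granulocyte-like clusters. This leave-out takes a cluster from the UAC library and none from the miR-330 library, so a higher ratio follows from how it is built. Without miR-330 cluster 10 alone the ratio of Olfm4 was −0.65, and without both clusters it was 0.35. For Csf3r in UAC against sham the macrophage-marker clusters held 68.9% and 76.1% of its UMIs in the other clusters, and its ratio there was 0.47, or 0.13 without both of them. These leave-outs were chosen after seeing the data. The deposited means move all ratios of a comparison by the same amount and leave the differences above unchanged. With them the ratios of Camp, Padi4 and Retnlg in the granulocyte-like clusters in UAC against sham changed sign. Without the clusters numbered 18, a setting chosen after seeing the data, those of Padi4 and Retnlg changed sign as well, to 0.23 and 0.17. That setting removes the UAC cluster lowest in both genes and no sham cluster, so their higher ratios follow from how it is built. Without the cluster highest in primary granule genes the ratios of Camp and Olfm4 in the same comparison changed sign, to 1.63 and 0.44. This setting removes sham cluster 10 with 84.3% and 72.9% of their sham UMIs. The ratio of Lcn2 in miR-330 against UAC changed sign after centring, to −0.29, and with the smaller denominator, to −0.09. Both settings move the ratios of all genes in the same clusters alike.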

How the results depend on the processing

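The number of the 8 genes past 2-fold was 0 over all clusters and over the granulocyte-like clusters in each of the 3 comparisons, and it stayed 0 with 5 UMIs added, with centring, without a minimum of UMIs, with the smaller denominator and without the clusters numbered 18, and over the granulocyte-like clusters with sham cluster 14 and UAC cluster 13 added, the last 2 chosen after seeing the data. With the deposited means it was 2 in miR-330 against sham over all clusters. Without the cluster of each library highest in primary granule genes, it was 5 in UAC against sham and 5 in miR-330 against sham, both over all clusters and over the granulocyte-like clusters. That setting removes sham cluster 10, with 84.3% of the Camp and 89.3% of the Ngp UMIs of its library, and cluster 18 of the other libraries, so its higher ratios against sham are fixed by its construction. Over the other clusters 2 genes were past 2-fold in UAC against sham, 1, Olfm4, after centring, with the smaller denominator or without sham cluster 14 and UAC cluster 13, and 3 with the deposited means (Ngp, Lcn2 and Olfm4). With those means every ratio rose alike, and 750 of all genes were past 2-fold, 647 of them higher, beside 644 with CPM. In miR-330 against UAC the number of the 8 genes past 2-fold was 1 over the other clusters and 2 after centring. In the clusters highest in Cebpe it was 0, and 1 without a minimum of UMIs in both comparisons (Ltf, with 1 UMI) and 1 with the deposited means in miR-330 against UAC (Olfm4). In those highest in Cxcr2 it was 1 in miR-330 against UAC and 0 with the deposited means. Of 97 log2 ratios of the 8 genes, 19 changed sign with the deposited means, 8 with centring and 4 with the smaller denominator. Each of these settings moves all genes of a comparison by the same amount within the same clusters. The sign changes thus only mark ratios closer to 0 than that amount, and say nothing on single genes. Of 69, 6 changed sign without the cluster highest in primary granule genes and 5 without the clusters numbered 18, and of 45, 4 with the added clusters. These settings remove or add unlike clusters in the libraries, so such sign changes can follow from how they are built. The share of all calls that were higher moved by over 10 points in several settings. Over all clusters it was 55.6% in UAC against sham and 81.4% with the deposited means, 72.1% in miR-330 against UAC and 91.6% with the deposited means or 52.2% after centring, and 69.4% in miR-330 against sham and 97.3% or 54.3%. In the granulocyte-like clusters it was 41.3% in the first comparison and 75.9% with the deposited means, and after centring it went from 95.4% to 68.2% in the second and from 92.7% to 65.0% in the third. In the other clusters it was 67.1% and 86.3% with the deposited means in the first, 61.1% and 85.2% or 48.5% after centring in the second, and 70.7% and 97.5% or 54.0% in the third. Other choices moved it too in the granulocyte-like clusters, in the first to 13.2% with 5 UMIs added and 9.02% without the clusters numbered 18, in the second to 52.4% with the added clusters, and in the third to 54.0% without the clusters numbered 18, 60.6% with the added clusters and 71.6% without the cluster highest in primary granule genes. Without a minimum of UMIs it was 68.7% and 70.2% there in the second and in the third, and 57.4% over all clusters in the second. The number of all genes called in the granulocyte-like clusters was 104 in UAC against sham, but 68 with 5 UMIs added, 573 without the cluster highest in primary granule genes 399 without the clusters numbered 18 and 292 with the added clusters. It was 569 in miR-330 against UAC, but 1288 with the deposited means and 292 after centring, and 826 in miR-330 against sham, but 2655 and 446. With the deposited means it went over all clusters from 484 to 842 and from 1175 to 2898 in these 2 comparisons, and over the other clusters from 512 to 799 and from 1179 to 3013. Without a minimum of UMIs it was between 2466 and 4257. The clusters taken by S100a8 and S100a9, which are also among the markers of the class, gave the same shares of UMIs. Of the 21 genes most like the 7, 5 were shared by Spearman rho. Depth limits Ltf most, with 32 to 52 UMIs in a library. No paired analysis was possible because each condition has 1 library.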
